A study of Ovis aries with 4 samples.

Results

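ALK and OTOF are 2 of the 26478 genes in the gene lists of a single-cell study of sheep striatum, and they were taken by their symbols (ALK, ENSOARG00020005205; OTOF, ENSOARG00020000652). They were chosen because earlier results of these data showed them in subsets of spiny neurons, so their levels across cell classes are described here without a test. The material was frozen striatum of 4 sheep aged 5 years, with no treatment or genetic change named in the labels. Of the 4 libraries, 2 held whole cells released with papain, an enzyme that digests the matrix between cells, and 2 held nuclei released by homogenising tissue in a buffer with detergent. Each library pooled 2 animals: replicate 1 of each kind held sheep 1 and 2, and replicate 2 held sheep 3 and 4. These pools follow the sample titles, whereas the protocol text gives the second suspension of cells as animals 2 and 3. The animals within a pool cannot be separated, so the spread between libraries covers pools and technical steps together.

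ALK is a receptor tyrosine kinase, a membrane protein that passes on signals when a ligand such as ALKAL1 or ALKAL2 binds it. OTOF encodes otoferlin, a large calcium-binding protein of the ferlin family, best known for transmitter release from the inner hair cells of the ear. Most neurons of the striatum are medium spiny neurons, which use GABA and are divided into a D1 type and a D2 type by their dopamine receptor. Another, smaller group with its own expression programme has been called eccentric spiny neurons in mice.

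The nuclei libraries held 8815 and 8723 barcodes, with medians of 2612 and 2042 unique molecular identifiers (UMIs, each marking 1 captured RNA molecule). The whole cells libraries held 2162 and 32500 barcodes with medians of 348 and 504 UMIs, of which mitochondrial genes took 88.7% and 86.9% of the library totals. In the nuclei libraries that share was 0.779% and 0.776%. Between 2 and 87 barcodes were shared by any pair of libraries, and the nuclei libraries shared 29.

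The nuclei formed 24 clusters without ALK and OTOF among the clustering genes. Classes were rebuilt here from marker genes, so each is called by its markers with "-like". The D2-like class joined cluster 2, with 611 nuclei of replicate 1 and 129 of replicate 2, and cluster 3, with 5 and 391. The D1-like class joined cluster 9, with 561 and 145 nuclei, and cluster 4, with 5 and 571. Each of these classes was therefore held mostly by a different cluster in each library. The eccentric-like class was cluster 11, with 73 and 85 nuclei. It had FOXP2, a transcription factor, at 1860 and 1931 CPM, against 3.09 and 4.07 in D2-like and 92.1 and 77.0 in D1-like nuclei. CPM is the usual counts-per-million unit: the UMIs of a gene relative to all UMIs of the class or library. Of 12 markers of spiny neurons, 3 were raised in it, and FOXP1, a transcription factor of spiny neurons, stood at 160 and 180 CPM there against 1589 and 1558 in D2-like nuclei. DRD1 and CASZ1 were not used here.

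ALK was carried by few nuclei at a high level. Nuclei replicate 1 held 16357 ALK UMIs and replicate 2 held 13005, from 624 and 627 barcodes. Barcodes with 5 or more ALK UMIs numbered 237 and 233, and they held 96.9% and 95.9% of all ALK UMIs. A single ALK UMI was seen in 312 and 313 barcodes. OTOF was sparser in both libraries, with 453 and 475 UMIs from 219 and 262 barcodes. The highest count in a barcode was 320 and 427 for ALK, and 18 and 20 for OTOF.

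Among the spiny classes, ALK was highest in eccentric-like nuclei, lower in D2-like nuclei and near the level of glia in D1-like nuclei. The ALK level was 2806 CPM in eccentric-like nuclei of replicate 1 and 2522 CPM in those of replicate 2. In D2-like nuclei the ALK level was 210.0 and 225 CPM. In D1-like nuclei the ALK level was 3.37 and 15.9 CPM, against 5.75 and 6.93 CPM in oligodendrocyte-like nuclei. The 3 spiny classes did not overlap between libraries, and the D1-like values lay on both sides of the oligodendrocyte-like ones.

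The highest ALK level was not in a spiny class. Cluster 19, an interneuron-like cluster of 22 and 30 nuclei, had 6119.6 and 5647 CPM of ALK. This cluster carried SST (somatostatin) at 7190.0 and 5071 CPM, NPY (neuropeptide Y) at 4421 and 4607 CPM and NOS1 (neuronal nitric oxide synthase) at 1337 and 1348 CPM, genes that together mark a known class of striatal interneuron. A second interneuron-like cluster, cluster 20, with KIT at 242 and 145 CPM, had 929 and 553 CPM of ALK. The label of spiny neuron subsets thus held for ALK only in part: all spiny nuclei together held 68.2% of its UMIs among clustered nuclei in replicate 1 and 56.6% in replicate 2. Cluster 19 held 16.7% and 24.7%, and cluster 20 held 12.7% and 16.4%.

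In order of mean level, ALK stood at 5884 ± 334 CPM (SD, n = 2 libraries) in cluster 19, 2664 ± 201 in eccentric-like nuclei and 741 ± 266 in cluster 20. D2-like nuclei followed at 217 ± 10.5 CPM and interneuron-like cluster 1, which carried CHAT (the acetylcholine-synthesising enzyme), at 124 ± 35.4. None of these 5 overlapped its neighbour between libraries. Oligodendrocyte precursor-like nuclei came next at 29.1 ± 1.90 CPM and microglia-like nuclei at 24.0 ± 5.30, closer together than their spread. From microglia-like nuclei down, neighbours in the order overlapped, apart from interneuron-like cluster 7 at 8.51 ± 0.481 CPM and oligodendrocyte-like nuclei at 6.34 ± 0.840. This order took units with at least 20 nuclei in each library. Outside it, the unnamed cluster 10, led by SLC17A6 (a glutamate transporter of excitatory neurons), had ALK at 174.6 CPM in 175 nuclei of replicate 1, where 29 nuclei carried 1 to 4 ALK UMIs, and 3 nuclei in replicate 2.

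OTOF reached its highest levels in the eccentric-like nuclei and in cluster 19. The OTOF level was 93.2 and 112 CPM in eccentric-like nuclei, and 123 and 68.7 CPM in cluster 19, so the order of these 2 was not resolved. Interneuron-like cluster 1 followed at 14.8 and 21.8 CPM. In D2-like nuclei the OTOF level was 3.84 and 7.12 CPM, and in D1-like nuclei 0.992 and 3.52 CPM. The D2-like values lay above the D1-like values in both libraries and overlapped those of cluster 20, at 6.81 and 8.05 CPM, and of oligodendrocyte precursor-like nuclei, at 6.59 and 8.03 CPM. Spiny nuclei held 72.6% and 71.8% of the OTOF UMIs of clustered nuclei, and eccentric-like nuclei alone held 49.1% and 42.1% of the same UMIs.

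**Figure D1:**
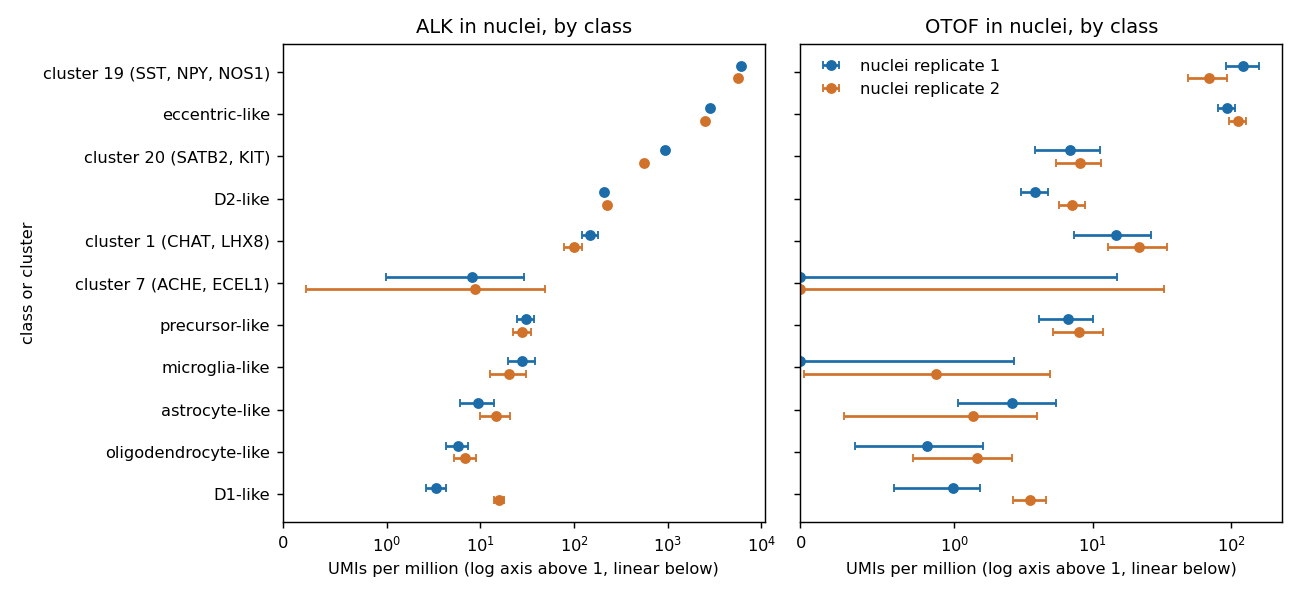
Level of ALK (left) and OTOF (right) in CPM by class or cluster, on an axis that is logarithmic above 1 and linear below; points are the 2 nuclei libraries and bars are 95% Poisson intervals, which cover counting error only. ALK is highest in cluster 19, at 6119.6 and 5647, while OTOF in eccentric-like nuclei, at 93.2 and 112, overlaps cluster 19.

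The share of nuclei with an ALK UMI was high in the eccentric-like class. It was 63 of 73 nuclei, or 86.3% (exact binomial 95% interval 76.2 to 93.2%), in replicate 1 and 63 of 85, or 74.1% (63.5 to 83.0%), in replicate 2. D2-like nuclei had ALK in 142 of 616 (23.1%) and 115 of 520 (22.1%), and D1-like nuclei in 61 of 566 (10.8%) and 97 of 716 (13.5%). Oligodendrocyte-like nuclei, the class with the lowest ALK level in the order above, had an ALK UMI in 1.39% and 1.35%. That they lack the gene was not measured. Their median depth was 2204 and 1593 UMIs, against 26544 and 17340 in eccentric-like, 31743 and 17861 in D2-like and 32186 and 17714 in D1-like nuclei.

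At an equal depth of 1000 UMIs per nucleus, the expected share with ALK was 73.4% and 56.5% in eccentric-like nuclei and 7.53% and 8.18% in D2-like nuclei. In D1-like nuclei it was 0.353% and 1.29%, below and above the 0.622% and 0.726% of oligodendrocyte-like nuclei. Other glia were higher: 0.969% and 1.45% in astrocyte-like, 2.09% and 2.27% in microglia-like and 2.67% and 2.83% in oligodendrocyte precursor-like nuclei. The ALK share of D1-like nuclei thus exceeded that of oligodendrocyte-like nuclei in 1 library and was below the other glia in both, and the D2-like share was above all 4 glial classes in both. For OTOF, 62 of 73 (84.9%) and 59 of 85 (69.4%) eccentric-like nuclei had a UMI, against 9.09% and 12.7% of D2-like, 3.53% and 5.59% of D1-like and 0.213% and 0.285% of oligodendrocyte-like nuclei. At equal depth the expected OTOF share was 9.35% and 9.97% in eccentric-like nuclei, 0.335% and 0.702% in D2-like nuclei and 0.106% in oligodendrocyte-like nuclei of both libraries. Its value in D1-like nuclei, 0.0860% and 0.271%, lay on both sides of that level. The OTOF share of D2-like nuclei was below that of oligodendrocyte precursor-like nuclei, at 0.761% and 0.860%.

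Within the D2-like class, most nuclei had no ALK and a minority had a great deal. In replicate 1, 474 D2-like nuclei had no ALK UMI, 65 had 1, 11 had 2 to 4, 18 had 5 to 19, 31 had 20 to 99 and 17 had 100 or more. In replicate 2 the same ranges held 405, 47, 15, 25, 20 and 8 nuclei. Nuclei with 5 or more ALK UMIs were 10.7% and 10.2% of the class, and the highest D2-like counts were 244 and 356. D1-like nuclei with 5 or more ALK UMIs numbered 0 and 8, with highest counts of 3 and 43.

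The D2-like average also covered clusters of unlike level. In replicate 2, ALK stood at 414 CPM in the 129 nuclei of cluster 2, whose median depth was 41450 UMIs, and at 76.0 CPM in the 391 nuclei of cluster 3, with a median of 15350. In replicate 1, where cluster 2 held nearly all D2-like nuclei, its ALK level was 210.5 CPM. The similar D2-like means of the libraries therefore came from different mixtures of clusters. The part of depth in this difference was not tested.

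Eccentric-like nuclei were less divided. Their median ALK count was 64 UMIs in replicate 1 and 17 in replicate 2, with highest counts of 286 and 273. The 10 and 22 eccentric-like nuclei without ALK had median depths of 16904 and 11025 UMIs, against 28428 and 21902 in those with it. For OTOF, the 11 and 26 eccentric-like nuclei without a UMI had medians of 16381 and 10605 UMIs, against 31037 and 20292. Nuclei lacking either gene were thus shallower in both libraries. In cluster 19 the median ALK count was 115.5 and 68 UMIs, and 21 of 22 and 30 of 30 of its nuclei carried ALK.

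**Figure D2:**
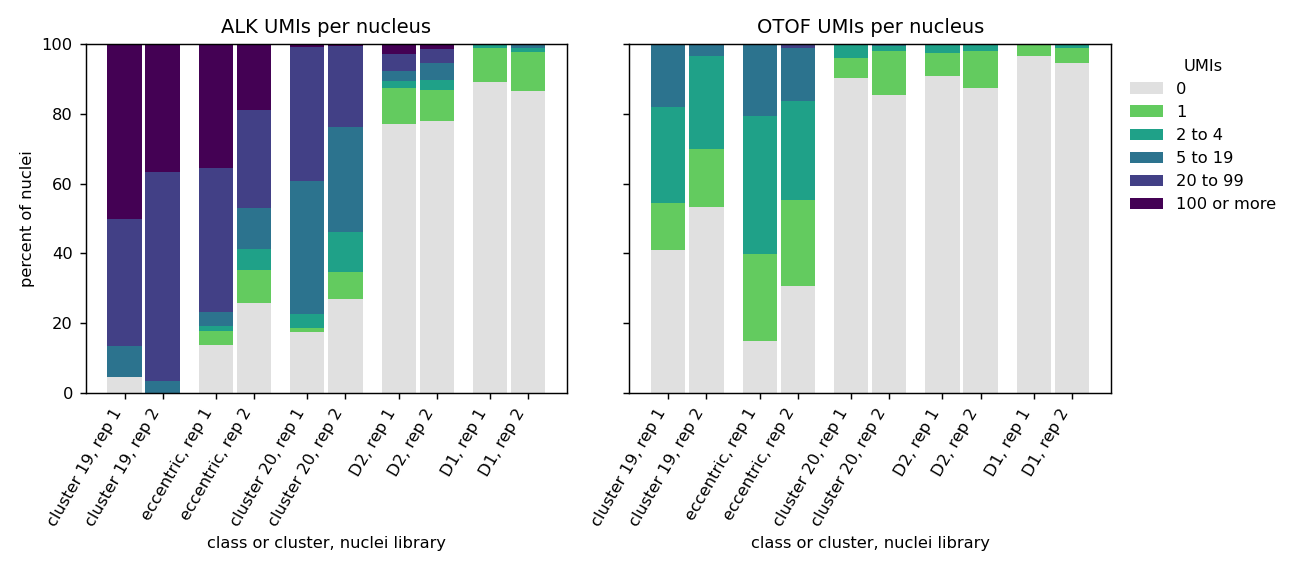
Percent of nuclei by number of ALK (left) or OTOF (right) UMIs in each class or cluster and nuclei library, as stacked bars that sum to 100. In D2-like nuclei of replicate 1, 474 of 616 have no ALK UMI and 17 have 100 or more.

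ALK and OTOF were found together in 74 spiny nuclei of replicate 1 and 71 of replicate 2. ALK without OTOF was seen in 192 and 204 spiny nuclei, OTOF without ALK in 64 and 94, and neither in 925 and 952. OTOF was detected in 27.8% and 25.8% of spiny nuclei with ALK, against 6.47% and 8.99% of those without, a log2 odds ratio of 2.47 and 1.82. At equal depth the expected log2 odds ratio was 3.64 and 2.98. All odds ratios here have a small constant added to each count of nuclei. In D2-like nuclei the log2 odds ratio was 0.88 and 0.85 at 1 UMI or more and 0.87 and 2.05 at 2 UMIs or more. At equal depth it was 1.99 and 1.83, but only 0.252 and 0.621 D2-like nuclei with both are expected. The constant raises those values, so they show no rise with equal depth. There, the expected OTOF share was 0.543% and 1.46% of D2-like nuclei with ALK, against 0.318% and 0.635% without. In eccentric-like nuclei the log2 odds ratio was 1.61 and -0.26 at 1 UMI or more, 1.51 and 1.02 at 2 UMIs or more, and -0.60 and -0.16 at equal depth. Its sign in the eccentric-like class thus changed with the setting. D1-like nuclei held 0 and 7 nuclei with both genes. Nuclei are not replicates, so these values carry no test.

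Other genes were compared between spiny nuclei with both genes and those with neither, as the ratio of summed CPM in each library. This split followed the classes: nuclei with both were 55 and 43 eccentric-like, 19 and 21 D2-like and 0 and 7 D1-like, while those with neither held only 3 and 6 eccentric-like nuclei. Median depth was 35076 and 26601 UMIs with both, against 30048 and 17032 with neither. Of 11256 genes tested, 243 (2.16%) were at least 2-fold higher in both libraries and 195 (1.73%) at least 2-fold lower. The balance turned with the setting: 266 higher and 400 lower of 11186 genes with both genes at 2 UMIs or more, and 227 higher and 1145 lower of 3732 genes at equal depth, where 4.83 and 5.26 nuclei with both are expected. These counts describe the groups, with no test, because the split follows the clusters.

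Ranked by the smaller of the library ratios, the first gene was ERBB4, a receptor for neuregulins, at 8684 and 7154 CPM in nuclei with both genes against 80.5 and 158 in those with neither. FOXP2 stood at 1262 and 1015 CPM against 54.2 and 55.3. Of 6 measured markers on the eccentric list, which named the class, FOXP2, COL11A1, ADARB2 and TSHZ1 were at least 2-fold higher in both libraries. GRM8, a glutamate receptor, was lower, at 442 and 425 CPM against 1059 and 859, as was HTR4, a serotonin receptor, at 127 and 202 against 478 and 433. KIT, the receptor for stem cell factor, stood at 39.9 and 31.2 CPM against 0.160 and 0.602. The others among the 12 highest were KCNT2 (a potassium channel), PTPRO (a receptor tyrosine phosphatase), KIRREL1, PPM1E, SEZ6L, MDFIC, ANK1 (an ankyrin), MDGA1 and PCDH15 (a protocadherin). On the lower side, EBF1, a transcription factor of D1 type neurons, stood at 1.44 and 14.7 CPM against 89.5 and 122. The other 11 lowest were CNTN6, GULP1, RGS6, MUC15, CDH20, PCDH19, ROBO2, CA10, DIAPH3, PTCHD4 and FSHR, among them the cell adhesion proteins CNTN6, CDH20 and PCDH19 and the Slit receptor ROBO2.

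A second split, chosen after the data were seen, stayed inside the D2-like class and set nuclei with 5 or more ALK UMIs (66 and 53) against those with none (474 and 405). In replicate 1 nearly all nuclei of both sides lay in cluster 2 (66 of 66 and 470 of 474), but in replicate 2 that cluster held 28 of the 53 ALK-carrying nuclei and 83 of the 405 with none, so there the sides differed in cluster. The part of the cluster in the differences was not tested. The median depths of the ALK-carrying nuclei were 37238 and 19527 UMIs against 30108 and 17513, and their median doublet scores 0.124 and 0.0980 against 0.0947 and 0.0841. The part of doublets in the differences was not tested. OTOF stood at 6.73 and 17.2 CPM in the ALK-carrying D2-like nuclei, against 3.70 and 6.01 in those with none. Of 9806 genes, 131 (1.34%) were at least 2-fold higher in both libraries and 91 (0.928%) at least 2-fold lower.

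Among the 12 highest genes in ALK-carrying D2-like nuclei was BACH2, a transcription factor on the striosome list, at 368 and 397 CPM against 64.6 and 70.5. KCNT2, PTPRO and MDGA1 were among the highest in this split too. So were LUZP2, CUX2, EPS8, TRPM3 (a cation channel), ELL2, COL19A1 and TGFBR2 (a receptor for TGF-beta). GULP1, an adaptor for engulfment, was lowest at 49.8 and 30.8 CPM against 744 and 709. NKAIN3, IMPG1, PTCHD4, CDH12, TOX3, SYCE1, B3GAT2, CALCR (the calcitonin receptor), ROBO2 and RGS6 were also among the 12 lowest. FOXP2, which marked the eccentric-like class, stood at 0 and 10.7 CPM in the ALK-carrying D2-like nuclei and at 1.63 and 3.56 in those with none. Of 5 measured markers on the eccentric list, COL11A1 was higher, at 65.5 and 79.5 CPM against 14.8 and 9.34. GRM8 was lower, at 457 and 377 CPM against 1113 and 1001, and HTR4 was lower, at 172 and 214 against 662 and 652.

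**Figure D3:**
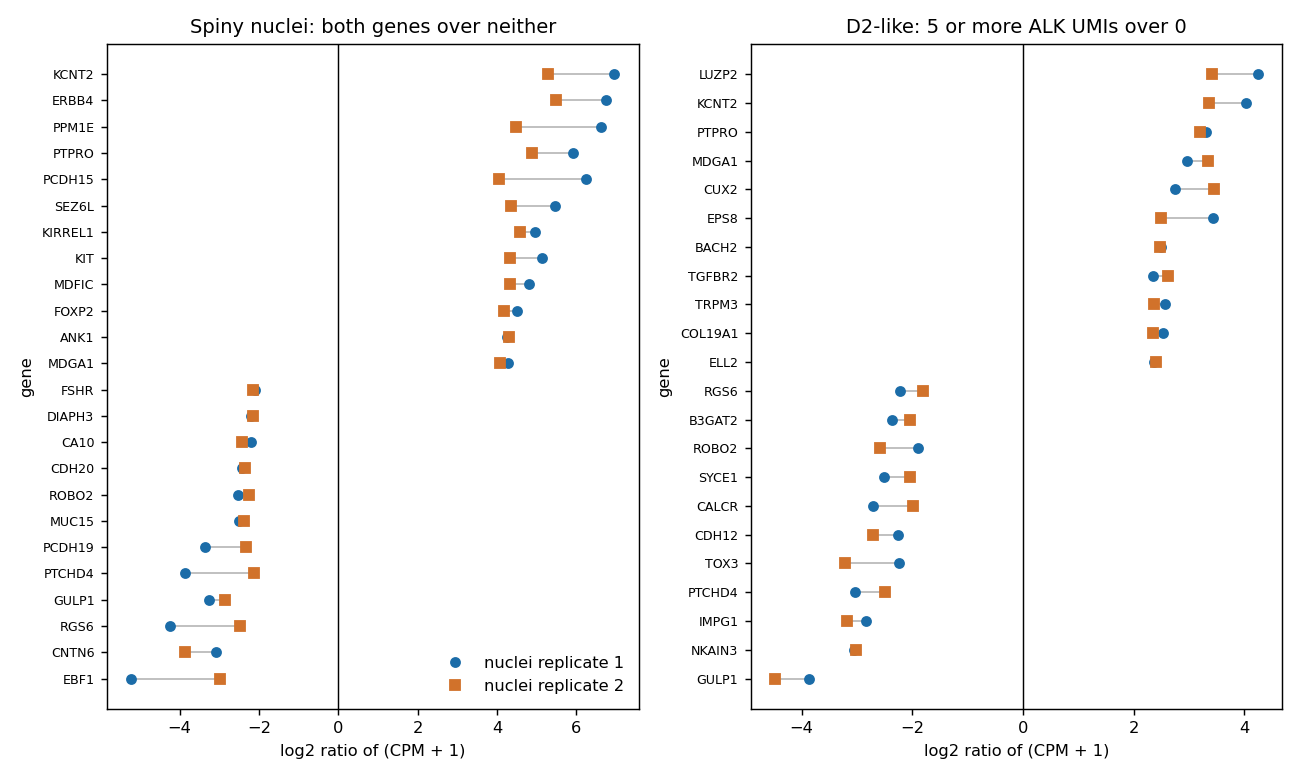
Log2 ratio of (CPM + 1) for genes among the 12 highest and 12 lowest in spiny nuclei with ALK and OTOF over those with neither, and in D2-like nuclei with 5 or more ALK UMIs over those with none; the marks are the 2 nuclei libraries, joined by a line. Every plotted gene was chosen for lying on the same side of 0 in both libraries.

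Counts for known partners of ALK are set beside the shares over all genes, 2.16% higher and 1.73% lower in the first split and 1.34% and 0.928% in the D2-like split. None of the 3 ligands and related receptors could be compared, and ALKAL1 stood at 0 CPM in eccentric-like nuclei of both libraries. PTPRZ1, a receptor phosphatase that shares ligands with ALK, was the only one of 2 measured other partners past 2-fold, at 180 and 128 CPM with both genes against 55.3 and 63.6 with neither. In the D2-like split 0 of 2 passed. Of 15 adaptors and signalling proteins used by ALK, 0 were higher and 2, JAK3 and PIK3R1, were lower in nuclei with both genes, and in the D2-like split 0 of 14 differed by 2-fold in both libraries. The median log2 ratio of the adaptors was 0.08 and 0.04, against -0.05 and -0.11 over all genes tested.

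Counts for the other ferlins and for a general list of transmitter release genes were also few, as they were over all genes. Of the other ferlins, 0 of 2 passed in the first split and 0 of 1 in the D2-like split. Among 22 genes of transmitter release, 1 was higher in nuclei with both genes: UNC13C, a vesicle priming factor, at 909 and 662 CPM against 307 and 310.4. In the D2-like split SYT9, a synaptotagmin, was the 1 of 21 that passed, at 27.7 and 42.3 CPM against 10.6 and 12.9. The median log2 ratio of the release list was -0.01 and -0.05 in the first split and 0.13 and 0.05 in the second.

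In each of the lists for striatal compartments, at most 2 members passed 2-fold in both libraries of a split. Of 6 measured striosome genes, SEMA5B and BACH2 were higher in both splits, where 2.16% and 1.34% of all genes were. The others stayed within 2-fold in at least 1 library. In the first split the log2 ratios were -0.49 and -0.82 for TAC1, -0.14 and -0.33 for OPRM1 and -0.24 and -0.06 for LYPD1, and the list median was -0.19 and 0.03. In the D2-like split OPRM1, the mu opioid receptor, stood at -0.79 and -1.14, and the list median was 0.87 and 0.35. Of 5 matrix genes, CALB1 (calbindin) alone was lower in both splits, where 1.73% and 0.928% of all genes were: 8.98 and 7.57 CPM with both genes against 33.5 and 28.6, and 8.98 and 12.9 against 33.8 and 28.4 in the D2-like split. Of 4 measured genes of the island of Calleja and ventral striatum list, GRIK1, a kainate receptor subunit, was lower in both splits, at 6.82 and 13.2 CPM against 18.4 and 34.4 in the first and at 5.99 and 2.15 against 13.7 and 24.8 in the D2-like split. CPNE4 was higher in the first split, at 186 and 136 CPM against 26.9 and 32.8, and stood at 29.6 and 45.1 against 26.0 and 30.7 in the D2-like split. Of 7 measured D2 markers, 1 was lower in the D2-like split and none higher, while the list median was 0.52 and 0.27 and all 8 listed summed to 850 and 944 CPM in ALK-carrying nuclei against 544 and 785. The 1 lower was PENK, the enkephalin precursor, in ALK-carrying D2-like nuclei, at 6.73 and 16.5 CPM against 53.8 and 51.9, while DRD2, the receptor that names the class, stood at 46.4 and 67.3 against 32.0 and 50.6. Markers of oligodendrocytes summed to 33.3 and 61.8 CPM in nuclei with both genes and to 74.8 and 102 in nuclei with neither. In the D2-like split they summed to 55.6 and 80.1 against 86.6 and 80.5. Among oligodendrocyte precursor markers, PTPRZ1, PDGFRA and TNR were higher in nuclei with both genes, while the list summed to 1623 and 1727 CPM against 1738 and 1819. In the D2-like split the precursor list summed to 998 and 1186 CPM against 1715 and 1727. Astrocyte markers summed to 79.1 and 101 CPM against 111 and 285 in the first split, and to 95.6 and 109 against 114 and 228 in the D2-like split. The part of these other cell types in the differences was not tested.

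Likeness was taken in each library over its own 18 clusters of at least 50 nuclei. Clusters 10 and 16 entered only in replicate 1 and clusters 3 and 4 only in replicate 2, so the r values are not over the same clusters, and cluster 19 entered in neither. The gene most like ALK was CLMP, a cell adhesion protein, with Pearson r of 0.83 and 0.82. R3HDM1, GALNTL6, KCNIP4, GRIN2A (an NMDA receptor subunit), GABRG3 (a GABA-A receptor subunit), CNTN3, CNTNAP5, HEPHL1 and MYCBP2 followed. The gene most like OTOF was SYTL5, a synaptotagmin-like protein, with r of 0.90 and 0.88. CLSTN2, THSD4, VWC2L, NTNG1, CFAP221, RBMS3, GALNTL6 and ASIC2 were also among the 10 most alike. Among 10583 genes, OTOF was the 22nd most like ALK and ALK the 39th most like OTOF, with r of 0.68 and 0.84. These correlations are descriptions over clusters that share their libraries.

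Genes that neighbour ALK and OTOF in the RefSeq assembly ARS-UI_Ramb_v3.0 were compared across the spiny classes and did not share 1 pattern. CLIP4, near ALK, had the same order of classes, at 330.2 and 299.9 CPM in eccentric-like, 210.5 and 187 in D2-like and 144 and 124 in D1-like nuclei. DRC1 overlaps OTOF in that annotation, so reads of the shared stretch cannot be told apart without the strand rule of the counting. DRC1 stood at 6.997 and 7.37 CPM in eccentric-like nuclei and between 2.28 and 3.26 in D1-like and D2-like nuclei, so it too was highest in the eccentric-like class. SELENOI, also near OTOF, stood at 21.0 and 22.1 CPM in eccentric-like nuclei, within its range of 20.6 to 28.9 in the other spiny classes. TOGARAM2, near ALK, stood at 0 and 0.567 CPM in eccentric-like nuclei, where the 0 allows up to 1.31 CPM, against 2.48 and 4.07 in D2-like and 1.24 and 2.56 in D1-like nuclei, so the order against D1-like nuclei was not resolved in replicate 1. CIB4, near OTOF, stood at 2.62 and 6.24 CPM in eccentric-like, 5.29 and 7.29 in D2-like and 5.31 and 6.34 in D1-like nuclei, so it was not highest in the eccentric-like class in either library. PCARE and ADGRF3 were at 0 CPM in eccentric-like nuclei of both libraries.

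The series set nuclei against whole cells as a source of RNA. ALK was chosen from earlier results in these nuclei and met the filter on low counts through the nuclei libraries alone, so its values are given as a description, with no test. Whole cells held 0 and 9 ALK UMIs, or 0 and 0.468 CPM, against 232 and 254 CPM in nuclei. The groups did not overlap. How many of all genes are apart in this way was not counted. Scaled by library size alone, as CPM is, edgeR called 12537 of 15781 genes higher in nuclei, with a median log2 ratio of 3.66. A higher level in nuclei was thus common on this scale. A count of 0 in whole cells replicate 1 allows up to 2.69 CPM, so ALK was at least 86.3-fold and 94.6-fold higher in the nuclei libraries than there. With mitochondrial UMIs left out of the totals, that limit was 23.8 CPM and ALK was at least 9.82-fold and 10.8-fold higher.

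The log2 ratio of nuclei to whole cells fitted for ALK by edgeR was 6.05, where the median over all genes was 0.61. Of the 15781 genes in the fit, 7117 met the filter through the nuclei alone as ALK did, and 2326 of these were called higher in nuclei by the quasi-likelihood test with Benjamini-Hochberg adjustment. OTOF met the filter in both kinds. Of 15781 genes tested, 29.8% were called toward nuclei (higher there) and 22.4% toward whole cells, so a call alone was common. With the animal pool as a replicate block, 2246 genes were called higher in whole cells in place of 3536. Per the file headers, the version of the counting program changes with the kind of library, and its part cannot be told apart. In sums over a library, fewer cells of a type and less RNA per cell cannot be told apart either.

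OTOF did not pass that test. Whole cells held 2 and 22 OTOF UMIs, or 1.79 and 1.14 CPM, against 6.43 and 9.30 CPM in nuclei. With mitochondrial UMIs left out, whole cells stood at 15.9 and 8.76 CPM and nuclei at 6.48 and 9.37, so the groups were apart on the first scale and overlapped on the second. The edgeR estimate for OTOF was -0.41 on the log2 scale, with an SE of 0.56 and an adjusted p of 0.547, and -1.02 relative to the median of all genes. Scaling by library size alone turned it to 2.67 (adjusted p = 0.000903), where the median of all genes moved to 3.66 and the value relative to it was -0.99.

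**Figure D4:**
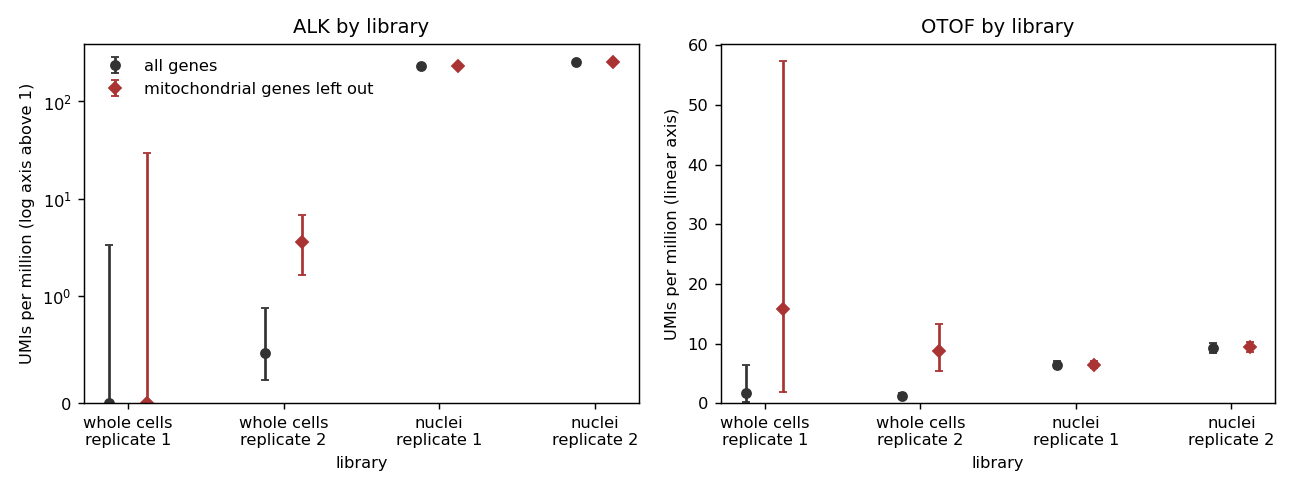
ALK (left, axis logarithmic above 1) and OTOF (right, linear axis) in CPM for each library, over all UMIs and with mitochondrial UMIs left out; bars are 95% Poisson intervals. ALK lies at 0 and 0.468 in whole cells and at 232 and 254 in nuclei, while OTOF without mitochondrial UMIs overlaps between the kinds.

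The whole cells barcodes gave no view of classes. Each positive whole cells barcode had 1 UMI of the gene, and no barcode had both genes. A UMI of any of 12 spiny markers was present in 2 of the 9 ALK barcodes, in 1 of 2 and 1 of 22 OTOF barcodes, and in 1.43% and 9.63% of all barcodes of replicates 1 and 2.

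For the gene lists, the shares over all genes were 29.8% toward nuclei and 22.4% toward whole cells. Of 18 adaptors tested, BRAF, IRS1, JAK3, SHC2, SHC3 and STAT3 were higher in nuclei and DUSP6, FRS2 and PTPN11 higher in whole cells, with a median log2 fold change of 0.92. Of these, IRS1, JAK3 and SHC3 met the filter through the nuclei alone, with 0 and 1, 0 and 0, and 0 and 79 counts in whole cells, so their calls do not support a difference of the list. Of 3 other ALK partners tested, MDK, a secreted growth factor, was higher in whole cells. Of 4 other ferlins, DYSF and FER1L6 were higher in nuclei, FER1L6 with 0 and 1 counts in whole cells and likewise in the test through the nuclei alone. Among 23 genes of transmitter release, nuclei had more of 10 and whole cells more of 6, the latter including CPLX2, RAB3A, SLC32A1, SYT4 and VAMP2, with a median of 0.70 against 0.61 over all genes. Of the 10, SYT7, SYT9 and VAMP1 met the filter through the nuclei alone.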

How the data were processed

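The authors deposited raw UMI counts per gene and barcode for each library. Per the file headers, they came from Cell Ranger 6.0.1 (whole cells) and 7.0.0 (nuclei). The sample records instead name Cell Ranger 2.1.1 and 6.0.1 and STAR 2.7.2a, so the 2 sources differ. Genome build, annotation and intron counting are not given in the sources used here. The members, gene lists and markers were chosen with earlier results of these data known. Library totals were 1115058 and 19241918 UMIs for whole cells and 70473292 and 51102420 for nuclei.

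Nuclei were kept from 200 genes upward and up to 5% of UMIs from 35 mitochondrial genes, and were clustered with scanpy 1.11.5 on 2000 variable genes, without ALK and OTOF, using 30 components, 15 neighbours and Leiden resolution 1. This left 16698 nuclei. Scrublet called 390 of 8700 nuclei (4.48%) in replicate 1, which were removed, and 0 of 8388 in replicate 2, so no doublets were removed there. A cluster was named where at least 3 markers were 2-fold above the mean of the other clusters, with a margin of 2 markers over the next class and no other class ahead among its 10 leading genes. These naming thresholds date from after the data had been seen, and 19 of 24 clusters were named. Shares at equal depth are exact hypergeometric expectations for 1000 UMIs, with shallower nuclei left out. Intervals are exact (95%), limits for 0 use 3 counts, and both cover counting error only.

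Named genes were ALK and OTOF, the 10 most alike to each (log2(CPM + 1), at least 200 UMIs, ranked by the lower r of the libraries), the 12 highest and 12 lowest in a split (at least 100 UMIs) and the members of the lists. A few genes that met this rule are not reported here. Counts summed per library were tested with edgeR 4.0.16 (TMM, filterByExpr, glmQLFTest, threshold 0.05) in R 4.3.3, checked on simulated counts. There, 65 of 100 genes changed 4-fold and 99 of 99 changed 16-fold were called, as were 4 of 15992 unchanged genes. The simulation drew both kinds from the same mean profile with a fixed dispersion and few changed genes. It did not cover the unlike mitochondrial shares of the real kinds, so it gives no rate of false calls for them. DESeq2 1.42.0 was an alternative. The libraries of a kind came from separate animal pools per the titles, with 2 libraries a kind. Same-numbered libraries share animals per the titles. Over 1791 genes with at least 10 counts in each library, deviations from the group means correlated at -0.05 between libraries of a pool.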

Additional observations from a re-analysis of the deposited data

How the results depend on the processing

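Of 152 alternative values, 122 were labelled as kept, 28 moved and 2 reversed. Kept means the same direction and call, a value within the spread of the libraries or, for counts of genes, within a fixed fold. For level ratios, shares and odds ratios, leaving out a nuclei library could only give a value within that spread. Those values are therefore no check. Alternatives on doublet scores, shared barcodes and the D2-like split were chosen after the data were seen. ALK in eccentric-like over other spiny nuclei was 4.61 (log2) and 4.49 at equal depth. ALK in cluster 19 over eccentric-like nuclei was 1.14, 1.21 with 4000 variable genes and 1.27 at equal depth. The log2 odds ratio of ALK and OTOF averaged 2.15, 4.23 at 2 UMIs or more and 3.31 at equal depth. Genes 2-fold lower with both genes numbered 195, 400 at 2 UMIs or more, 1145 of 3732 genes at equal depth and 362 to 520 in single libraries. The ALK ratio of D2-like to D1-like nuclei, 4.67 (5.59 and 3.74), had no value under 6 clustering alternatives, in which a spiny cluster had no further type. With at least 500 genes per nucleus no eccentric-like class formed. OTOF between nuclei and whole cells reversed from -0.41 to 2.67 with library size alone and to 1.76 (edgeR adjusted p = 0.306) with barcodes of at least 200 genes, and lay between -0.76 and -0.25 when a library was left out. The fitted ALK ratio, given with no test because ALK met the filter through the nuclei alone, lay between 5.79 and 9.12, and at 16.26 without whole cells replicate 2, which leaves a library with 0 ALK counts and gives no bound. Genes higher in nuclei numbered 4695, 12537 with library size alone and 2865 to 5846 when a library was left out. Genes higher in whole cells numbered 3536, 498 with library size alone, 2246 with the replicate block, 1796 with barcodes of at least 200 genes and 1506 to 4161 when a library was left out. With the block the fitted values were 6.18 for ALK and -0.37 for OTOF, whose call did not change. The causes were not tested. Of 52 class shares, 12 moved, and all 12 were lower. With 4000 variable genes the mean ALK share of eccentric-like nuclei went from 80.2% to 70.8%. The other moved shares came from requiring 2 UMIs or from equal depth, which can only lower a share, so their direction was fixed in advance. OTOF had few counts in the nuclei libraries, 453 and 475 UMIs, and the part of depth in this was not tested.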
